A study of Sus scrofa domesticus with 4 samples.

Results

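The genes described here encode 8 antioxidant enzymes and redox proteins: SOD1, SOD2, CAT, GPX1, GPX4, PRDX6, TXN and HMOX1. They were given by name, and a probe counted as a member when its RefSeq accession mapped to one of them. This found 31 probes for 7 of the 8 genes, among 43603 probes in all, of which 6700 name 3029 genes. No probe carried the accession of SOD2, which is not analysed here.

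Antioxidant enzymes take apart the reactive oxygen species that respiration and inflammation produce. Superoxide dismutases (SOD1 in the cytosol, SOD2 in mitochondria) turn superoxide into hydrogen peroxide, and catalase (CAT), glutathione peroxidases (GPX1, GPX4) and the peroxiredoxin PRDX6 then reduce peroxides. Thioredoxin (TXN) keeps protein thiols reduced, and haem oxygenase 1 (HMOX1) is the stress-inducible enzyme of haem breakdown.

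The arrays set endometrium cultured with orexin A (OXA, a hypothalamic peptide that acts in feeding and arousal) against endometrium cultured without it, in pigs around the time of implantation. Slices from the middle of the uterine horns of 4 gilts (Large White x Polish Landrace, 7 to 8 months old, on days 15 to 16 of gestation) were kept for 2 h and then cultured for 24 h with OXA or without any addition. The labels give the OXA dose as 10 nM and the design text as 10 µM. Each of 4 Agilent arrays held 1 OXA-treated and 1 untreated RNA. OXA was labelled with Cy5 on arrays 1 and 3 and with Cy3 on arrays 2 and 4 according to the dye fields of the samples, whereas the general labelling text has OXA in Cy5. The sources used here do not tie the RNAs of an array to 1 gilt. With a dye coefficient in the fit, p-values measure the spread between arrays of like labelling (1 and 3, 2 and 4), whatever that spread contains. Explants hold every cell type of the tissue, and in such bulk RNA fewer cells of a type cannot be told apart from less RNA per cell.

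The arrays were unequal. In Cy3 (control) on array 1, 31.8% of probes were well above background, against 52.1% to 74.5% in the other OXA and control channels of the 4 arrays. Array 1 was on a slide of its own, scanned 71 days after arrays 2 to 4. The 3 measured stromal fibroblast markers had a median log2 OXA over control of 1.44 on array 1. Arrays 2 to 4 gave 0.02 to 0.26. The 5 measured epithelial markers had a median of -1.04 on array 1, from -1.86 (CLDN4) to -0.19 (KRT8). Their medians on arrays 2 to 4 were -0.36 to 0.64. Smooth muscle markers (3 measured) had medians of 0.01, -0.96, 0.56 and -0.21 on arrays 1 to 4. Endothelial markers (3 measured) had 0.70, -0.63, -0.36 and -0.49. All 5 measured epithelial markers, among them EPCAM and KRT8, and the gland product ACP5 (uteroferrin) were well above background in all 8 readings, as the tissue label has it, and no erythrocyte marker of the 6 listed had a named probe. The part of these differences in the results below was not tested. Between arrays, the OXA over control ratios of the 26927 probes tested correlated from -0.29 (arrays 3 and 4) to 0.42 (arrays 1 and 2), as a description over probes that share the same RNAs.

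All 31 probes passed the filter on dim spots, 28 of them in all 8 readings. Each gene was represented by its brightest probe. Ratios are given as log2 of OXA over control, and levels are normalized log2 brightness, which may be compared within a probe but not between genes. In the fit over all 26927 probes none of the 7 genes passed (limma, Benjamini-Hochberg; adjusted p = 0.763 to 0.938), and neither did any other probe (0%). At an unadjusted p under 0.05 there were 0 of 7 genes, against 3.32% of the 2407 named genes. OXA was above control on 4 of 4 arrays for 0 of 7 genes (2.83% of named genes) and below it on 4 of 4 for 0 of 7 (5.86%). The fitted value was above 0 for 5 of 7 genes (42.5% of named genes), and the median of the 7 was 0.06, against -0.02 for all named genes. Both rest on the choice of the brightest probe: by the mean over all kept probes 3 of 7 genes were above 0 and the median was -0.0055.

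**Figure D1:**
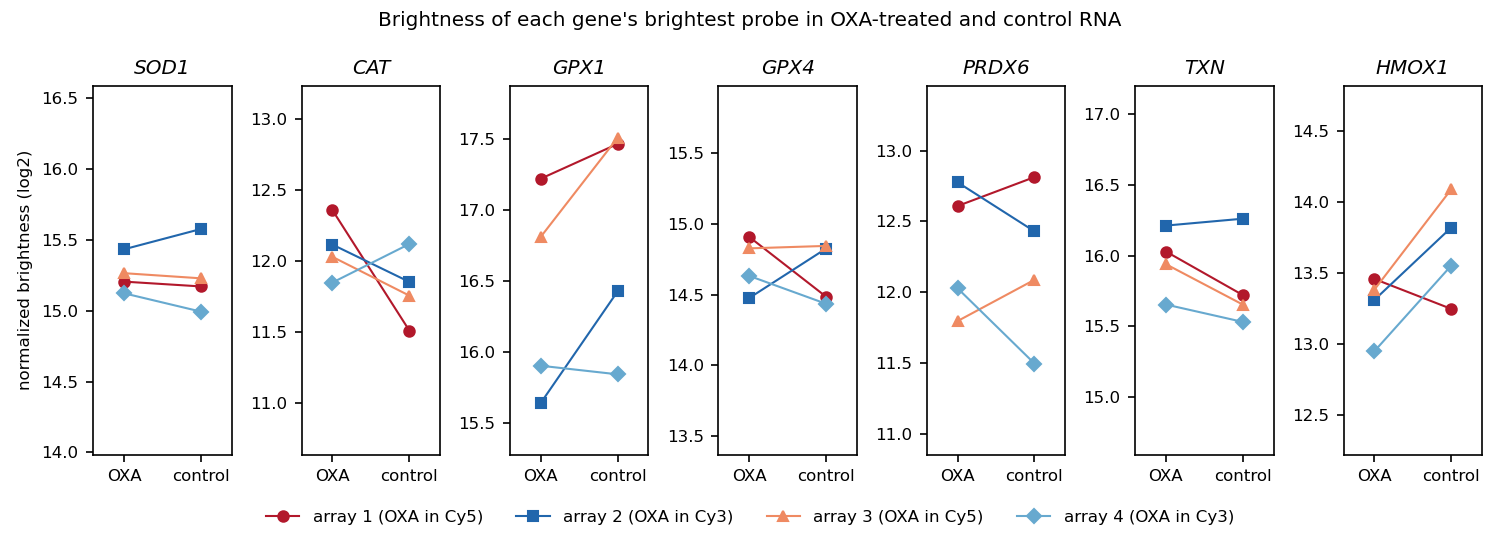
Normalized log2 brightness of the brightest probe of each gene (y axis, a span of 2.6 in every panel) in OXA-treated and control RNA, with a line joining the RNAs of 1 array. SOD1 lines are nearly flat, GPX1 and HMOX1 are higher in the control RNA on 3 of 4 arrays, CAT is higher in the OXA RNA on 3 of 4, and the sign of PRDX6 follows the dye.

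Of the superoxide dismutases, only SOD1 was measured, and it was the steadiest of the 7. Its brightness was 15.21, 15.43, 15.26 and 15.12 in OXA RNA on arrays 1 to 4, against 15.17, 15.58, 15.23 and 14.99 in control RNA. The ratios were thus 0.03, -0.14, 0.04 and 0.13, on both sides of 0. The fitted value was 0.01 ± 0.11 (SD, n = 4), with a 95% interval of -0.19 to 0.22 (limma, adjusted p = 0.938). The second probe of SOD1 gave 0.06, with 0.07, -0.13, 0.20 and 0.08 on arrays 1 to 4, so both probes followed 1 pattern. SOD3, the secreted dismutase, was -0.11, and CCS, the copper chaperone of SOD1, was 0.07. CCS split by dye, with 0.26 and 0.52 on arrays 1 and 3 (OXA in Cy5) and -0.27 and -0.24 on arrays 2 and 4.

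CAT, the haem enzyme of peroxisomes that splits hydrogen peroxide, was above control on 3 of 4 arrays. Its brightness was 12.36, 12.12, 12.03 and 11.85 in OXA RNA, against 11.51, 11.85, 11.76 and 12.12 in control RNA. The groups overlapped, and array 4 ran the other way. The ratios were 0.85, 0.26, 0.27 and -0.27, and the fitted value was 0.28 ± 0.46 (SD, n = 4), a fold of 1.21 with a 95% interval of -0.14 to 0.70 in log2 (limma, adjusted p = 0.763). All 9 CAT probes were above 0, from 0.02 to 0.28, with 8 of 9 above 0 when array 1 was left out and with no background correction. The dimmest (0.02, mean brightness of 10.06) was well above background in 7 of 8 readings, as was the next dimmest (0.11, mean brightness of 10.46). The mean over the 9 probes was 0.51, 0.10, 0.14 and -0.12 on arrays 1 to 4, highest on array 1. The brightest probe was 0.13 without array 1, 0.14 without array 2, 0.42 without array 3 and 0.41 without array 4. Its mean was 0.56 with OXA in Cy5 and -0.0043 with OXA in Cy3, a dye coefficient of 0.28. Array 1 is also where the stromal markers stood at 1.44 and the epithelial markers at -1.04, and the part of these in the CAT value was not tested. When arrays were centred on their median and loess was left out, the brightest CAT probe was 0.63, where the 2829 probes within 0.5 of its brightness had a median of 0.39.

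GPX1 and GPX4 are selenium enzymes: GPX1 reduces soluble peroxides with glutathione, and GPX4 reduces lipid peroxides in membranes. GPX1 had the lowest fitted value of the 7 genes. Its brightest probe stood at 17.22, 15.64, 16.81 and 15.90 in OXA RNA, against 17.47, 16.43, 17.51 and 15.84 in control RNA. Brightness differed more between arrays than within them, so the groups overlapped, but within an array OXA was the lower on 3 of 4. The ratios were -0.25, -0.79, -0.70 and 0.06. The fitted value was -0.42 ± 0.40 (SD, n = 4), a fold of 0.748 with a 95% interval of -0.93 to 0.09 in log2 (limma, adjusted p = 0.763).

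All 6 GPX1 probes pointed the same way, from -0.60 to -0.32. The unadjusted p was under 0.05 for 4 of them, against 1.86% of all probes, and 3 were below control on 4 of 4 arrays, against 4.26% of all probes. The 6 probes share the same RNAs and are no replicates of the treatment. The probe of lowest unadjusted p (A_72_P564112) gave -0.67, -0.67, -0.47 and -0.30 on arrays 1 to 4, and its fitted value was -0.53 (SE 0.09; limma, adjusted p = 0.763). The mean over the 6 probes was -0.56, -0.62, -0.63 and -0.08, near 0 on array 4 alone. All 6 were below 0 without any 1 of the 4 arrays, with means of -0.61 to -0.33. But none had an unadjusted p under 0.05 without array 1 (2.58% of all probes did), against all 6 without array 4 (7.65%). Without array 2 the count was 3 (1.10%) and without array 3 it was 2 (29.8%). With all 4 arrays that count was 1 with Agilent's log ratio (6.79% of all probes) or the authors' table (6.77%). It was 2 with array weights (1.09%), 3 with an intensity trend in the variance (0.98%), 5 with no background correction (5.22%) and 0 with median centring (16.8%). For the brightest probe the value was -0.21 without array 2 and -0.63 without array 4. The brightest GPX1 probe was brighter than 98.8% of the probes tested. With median centring and no loess it was 0.02 and 3 of the 6 probes were below 0, while the 339 probes within 0.5 of its brightness had a median of 0.36, against 0.02 with loess. Read as if OXA were in Cy5 on all arrays, the same probe was -0.05, equal to its dye coefficient, with 5 of 6 probes below 0.

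GPX4 showed no common direction over arrays. Its brightness was 14.91, 14.48, 14.83 and 14.63 in OXA RNA and 14.48, 14.82, 14.84 and 14.43 in control RNA. The ratios were 0.42, -0.35, -0.02 and 0.20, with a fitted value of 0.06 ± 0.33 (SD, n = 4) and a 95% interval of -0.32 to 0.45 (limma, adjusted p = 0.851). The groups overlapped, and its other probes gave 0.03 and -0.08. Without array 1 the brightest probe was -0.05 and without array 4 it was -0.07.

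PRDX6, a peroxiredoxin that also acts on oxidised phospholipids, split by dye. Its brightness was 12.61, 12.78, 11.80 and 12.03 in OXA RNA, against 12.81, 12.43, 12.09 and 11.50 in control RNA. The ratios were -0.20 and -0.29 on arrays 1 and 3, where OXA was in Cy5, and 0.35 and 0.53 on arrays 2 and 4, where it was in Cy3. The groups overlapped. The RNA in Cy3 was the brighter one on 4 of 4 arrays after normalization. The fitted OXA value was 0.10 ± 0.40 (SD, n = 4), with a 95% interval of -0.08 to 0.28 (limma, adjusted p = 0.763). That interval is narrow because the fit assigns the split to the dye coefficient, which was -0.34 for this probe and -0.52 to -0.26 over the 6 PRDX6 probes. Of the named genes 1.87% had a dye coefficient as low. Before normalization the same probe read 2815.5 in OXA RNA (Cy3) and 2864 in control RNA (Cy5) on array 4, while GPX1 read 31914 and 104702 there. Of the 6 probes 2 were above 0 and 4 below it, and all 6 were above 0 without array 1 (0.05 to 0.15). If OXA was in Cy5 on all arrays, as the labelling text words it, all 6 were below 0 and the brightest was -0.34 (limma, adjusted p = 0.905). These values equal the dye coefficients above, and with OXA in Cy5 on all arrays OXA and dye cannot be told apart. The sign of the brightest probe thus rests on which dye assignment is right. The mean over the 6 probes was -0.04 with the samples' dye fields and -0.39 with OXA in Cy5 on all arrays. With the samples' dye fields the sign of that mean rested on the processing. It was 0.04 with no background correction, with Agilent's log ratio and with the authors' table. It was 0.30 with median centring, 0.08 without array 1 and 0.01 without array 2, but -0.16 without array 3 and -0.09 without array 4. The authors' deposited value table runs against the Cy5 over Cy3 ratio on arrays 2 and 4 and with it on arrays 1 and 3, the orientation that the samples' dye fields give.

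TXN, the small redox protein that reduces peroxiredoxins, had 2 probes that disagreed. The brightest stood at 16.03, 16.21, 15.94 and 15.65 in OXA RNA and 15.72, 16.26, 15.65 and 15.53 in control RNA. Its ratios were 0.31, -0.05, 0.29 and 0.12, above control on 3 of 4 arrays, with a fitted value of 0.17 ± 0.17 (SD, n = 4) and a 95% interval of -0.01 to 0.34 (limma, adjusted p = 0.763). The other probe gave -1.32 on array 1 but 0.20, 0.05 and 0.36 on arrays 2 to 4, and its fitted value was -0.18. The OXA and control levels overlapped for both probes. On array 1 the probes lay 1.62 apart, and on arrays 2 to 4 they lay 0.23 to 0.25 apart. Without array 1 the fitted value was 0.16 for each.

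**Figure D2:**
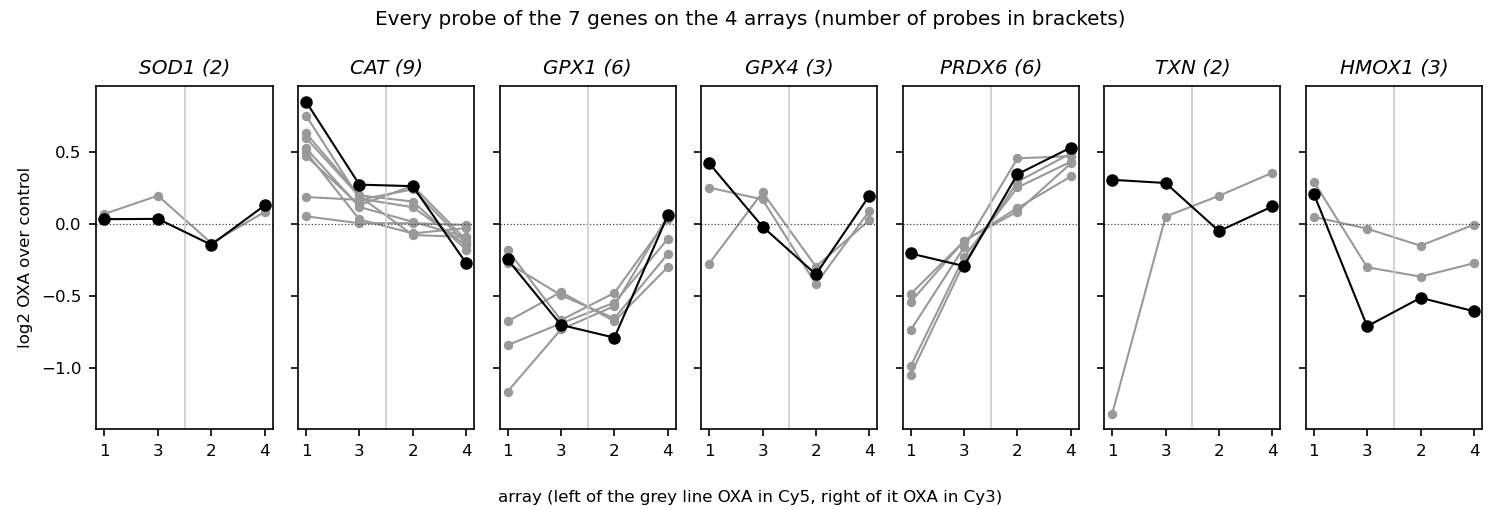
Log2 OXA over control (y axis) of each of the 31 probes on each array (x axis, arrays with OXA in Cy5 left of the grey line), with the brightest probe of a gene in black and the others in grey. Probes of CAT, GPX1, GPX4, PRDX6 and TXN lie farthest apart on array 1, most of all for TXN (0.31 and -1.32). Probes of 1 gene lie within 0.37 of each other on arrays 2 to 4 for all genes but HMOX1 (up to 0.68).

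CAT, GPX1, GPX4 and PRDX6 probes also lay farther apart on array 1 than on arrays 2 to 4, while SOD1 probes did not (0.04 apart on array 1, 0.16 on array 3) and HMOX1 probes lay closest there. Among the 28 probes above background in all readings, the SD between probes of 1 gene was 0.39 on array 1, against 0.12, 0.11 and 0.11 on arrays 2 to 4. On array 1 GPX1 probes ran from -1.16 to -0.18 and PRDX6 probes from -1.04 to -0.20. Over all 2827 such probes of 791 named genes the SD was 0.31 on array 1 and 0.18, 0.20 and 0.14 on arrays 2 to 4. What made the probes differ there was not tested.

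HMOX1 was below control on 3 of 4 arrays. Its brightness was 13.46, 13.31, 13.38 and 12.95 in OXA RNA, against 13.25, 13.82, 14.09 and 13.55 in control RNA. The groups overlapped, and only array 1 was above 0. The ratios were 0.21, -0.51, -0.71 and -0.60, with a fitted value of -0.40 ± 0.42 (SD, n = 4), a fold of 0.756 and a 95% interval of -0.89 to 0.09 in log2 (limma, adjusted p = 0.763). All 3 HMOX1 probes were below 0, at -0.40, -0.16 and -0.03 in order of brightness, and the dimmest was well above background in 7 of 8 readings. With no background correction the 3 probes ran from -0.43 to -0.22. Without array 1, hence within the slide of arrays 2 to 4, the brightest probe was -0.63 (limma, adjusted p = 1.00), with array 3 then the only one with OXA in Cy5 and the spread taken from arrays 2 and 4, and without array 3 it was -0.17. Read as OXA in Cy5 on all arrays, it was 0.15, equal to its dye coefficient, and all 3 probes were above 0. With median centring it was -0.05 and 1 of 3 probes was below 0, where the 1143 probes within 0.5 of its brightness had a median of 0.38. HMOX2, the constitutive haem oxygenase, was -0.17, with -0.39, -0.25, -0.03 and -0.02 on arrays 1 to 4.

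**Figure D3:**
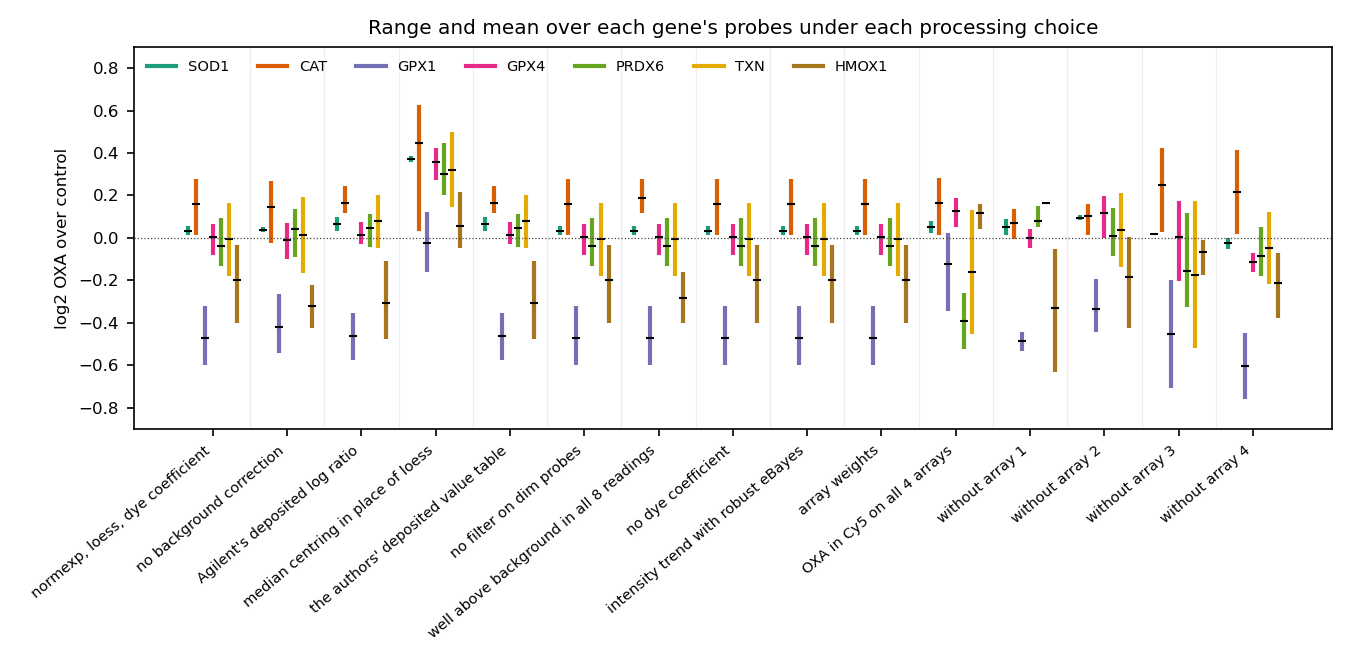
Log2 OXA over control (y axis) under each processing choice (x axis), with a bar for the range over the probes of each gene and a dash for their mean. By its mean GPX1 is lowest except with OXA read as Cy5, where PRDX6 is lowest (-0.52 to -0.26), and median centring moves every gene up.

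The named genes whose 4 ratios lay nearest to GPX1 were ETS1 (root mean square difference of 0.15 over 4 arrays), RHOV (0.21) and ISG15 (0.21). For HMOX1 they were NFKBIA (0.15), CSTB (0.24) and OAS2 (0.25). These are descriptions among 2406 other named genes and 4 arrays. NFKBIA, the inhibitor of NF-kB, gave 0.04, -0.37, -0.57 and -0.45, with only array 1 above 0 as for HMOX1.

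A wider list of 89 redox genes was read beside the enzymes. Of these 39 had a named probe and 37 a kept one. None of the 37 passed (limma, Benjamini-Hochberg over all probes; adjusted p of at least 0.763). Of the 37, 13 were above 0 (42.5% of named genes) and 24 below (57.5%), 1 was above control on 4 of 4 arrays (2.83%) and 3 below it on 4 of 4 (5.86%; CYBA, HMOX2 and GPX2), and the median was -0.02, equal to that of all named genes. At an unadjusted p under 0.05 there were 4, 2 higher and 2 lower, against 3.32% of named genes, and there were 0 with an intensity trend in the variance, where 1.29% of named genes passed, 9 without array 3, where 24.5% did, and 0 without array 4, where 7.69% did. CYBA, the p22phox subunit of superoxide-producing NADPH oxidases, had the lowest unadjusted p. It was -0.23, -0.32, -0.34 and -0.15 on arrays 1 to 4, below control on each, with a fitted value of -0.26 (SE 0.06), and 0.10 with median centring, where probes of like brightness had a median of 0.36. GLRX (glutaredoxin) was -0.29, with 0.07 on array 3 and -0.67 on array 4, and 0.07 with median centring, where probes of like brightness had a median of 0.38.

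PARK7 (DJ-1, an oxidative stress sensor) was 0.22 and PRDX3 (the mitochondrial peroxiredoxin) was 0.20. Both split by dye. With OXA in Cy5 (arrays 1 and 3) PARK7 gave 0.37 and 0.51, and with OXA in Cy3 (arrays 2 and 4) it gave -0.07 and 0.07. PRDX3 likewise gave 0.34 and 0.52 with OXA in Cy5, against -0.04 and -0.03 with OXA in Cy3. Of the 15 PRDX3 probes 11 were above 0, from -0.11 to 0.20, and both PARK7 probes were above 0.

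By role, the 8 other superoxide and peroxide enzymes were split evenly around 0, with a median of 0.03. GPX2, the epithelial glutathione peroxidase, was the lowest of them at -0.35, from -1.06 on array 1 to -0.01 on array 4. Epithelial markers had a median of -1.04 on array 1 and 0.64 on array 4, and their part in the GPX2 value was not tested. GPX2 had 1 kept probe, dim (mean brightness of 10.50) though well above background in all 8 readings. In the thioredoxin system 3 of 5 genes were above 0. TXNIP, the inhibitor of thioredoxin, was 0.31 by its brightest probe, with 0.95 on array 4, but its 7 probes ran from -0.11 to 0.31, 4 above 0 and 3 below. TXNRD1, the cytosolic thioredoxin reductase, was -0.19 with 4 probes from -0.34 to 0.14. Of 8 genes of glutathione synthesis and transfer 6 were below 0 (57.5% of named genes were), among them GSS (glutathione synthetase) at -0.21 and GSTZ1 at -0.24. Arrays 1 and 2 gave these values: GSS was -0.54 and -0.37 there, and 0.02 and 0.04 on the other arrays. GSTZ1 was -0.60 and -0.39 there, and 0.07 and -0.02 on the others.

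The remaining groups were small. NQO1, a quinone reductase and a usual target of the factor NRF2, was -0.19, and all 3 of its probes were below 0. Its brightest probe gave -0.07, -0.68, 0.03 and -0.04 on arrays 1 to 4, and its fitted value was -0.03 without array 2. KEAP1, which holds NRF2 inactive, was -0.12, and NFE2L2, the gene of NRF2 itself, is not analysed here. PPARGC1A was 0.16, with 3 of 4 arrays above control. The 3 genes of NADPH supply were below 0, as 57.5% of named genes were, with TALDO1 at -0.20, TKT at -0.15 and IDH2 at -0.06. The group listed as oxidant sources also held UCP2, an uncoupling protein and not an enzyme that makes oxidants. CYBA and UCP2 (both -0.26) were the lowest in it, and NCF1, DUOX2, MAOA and MAOB lay between -0.01 and 0.03. The NCF1, DUOX2 and MAOB probes were dim (mean brightness of 9.96, 10.37 and 10.35), and ratios of dim probes shrink toward 0.

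**Figure D4:**
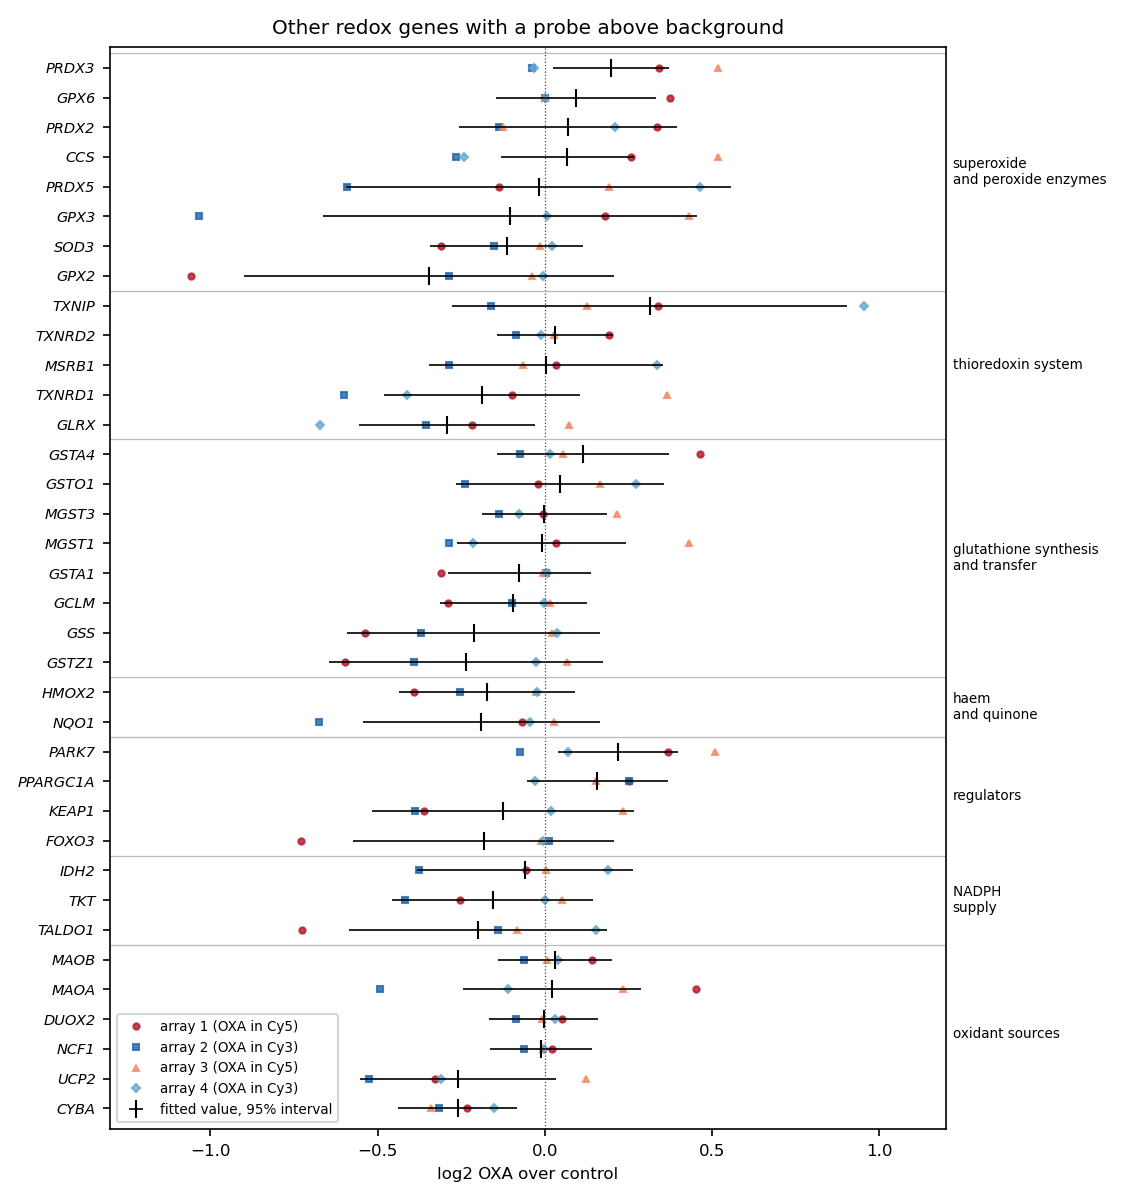
Log2 OXA over control (x axis) of 36 of the 37 other redox genes with a kept probe, grouped by role, with a symbol for each array and a bar for the fitted value and its 95% interval. Intervals of 4 genes lie off 0 (CYBA, GLRX, PARK7 and PRDX3), and none of these passed over all probes.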

How the data were processed

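The authors deposited scanner files that hold, per the file headers, the output of Agilent's Feature Extraction software (version 10.7.3.1), with each spot's median pixel intensity and local background in Cy3 and Cy5. The same deposited files hold a log10 ratio of Cy5 over Cy3, and marks (other values of 0 or 1) for background, saturation and outliers. The deposited value table holds log2 ratios of OXA over control (slopes of 1.06, -1.00, 1.04 and -1.03 against the scanner ratios, column medians of -0.17, 0.06, -0.06 and 0.09), and its centring is unknown.

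Medians were corrected by normexp (offset 50; ratios of dim probes shrink toward 0) and loess, and fitted in limma 3.58.1 (R 4.3.3) with OXA and dye coefficients (2 residual degrees of freedom, 3.88 after moderation). Control and outlier spots were left out (135 probes lost), replicate spots averaged, and probes kept when well above background in at least 4 of 8 readings. Saturated spots numbered 0, and precision is limited by having 4 arrays. Levels per channel had brightness quantile-scaled between arrays. The SD is over all 4 arrays and includes any split by dye. SE and intervals are the fit's, after the dye coefficient and moderation, so they need not follow the SD.

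Accessions were matched without versions to RefSeq genes of Sscrofa11.1 (6700 of 7125). No genome build is named in the headers, so no coordinates are given, and probe sequences were not used. The members and lists were chosen with earlier results of these data known. Named besides the members were the 12 wider-list genes of lowest unadjusted p and, for the 2 members of largest absolute fitted value, the 3 nearest genes; SOD3, CCS, TXNIP, TKT, TALDO1, IDH2, KEAP1, NCF1, DUOX2, MAOA and MAOB were named after their values were seen. For 1 gene of the wider list the value is not reported here. The fit was tested on simulated data.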

Additional observations from a re-analysis of the deposited data

Results flagged for a closer look

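On 1 array a value stood apart from the other 3 for 2 of the 43 probes checked (by the gap to the nearest of the others over the whole range, at a level that chance passes in about 1 of 20 groups). The second HMOX1 probe (A_72_P689842) was 0.30 on array 1 (gap over range 0.858), and -0.36, -0.30 and -0.27 on arrays 2 to 4. NQO1 was -0.68 on array 2 (gap over range 0.864), and -0.07, 0.03 and -0.04 on arrays 1, 3 and 4.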

How the results depend on the processing

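With 4 arrays, precision is low and no brightest member probe passed under any of the 14 alternatives with a test (limma, lowest adjusted p = 0.165, HMOX1 without array 3). Probes past an adjusted p of 0.05 numbered 0, and 0 to 6 leaving out 1 array (6 without array 4). Probes whose fold reached 1.2 at an unadjusted p below 0.05 numbered 349, against 1406 with no background correction, 1829 with Agilent's log ratio, 1824 with the authors' table, 4297 with median centring, 193 with array weights, 679 with OXA read as Cy5, and 285 to 3115 leaving out 1 array (3115 without array 3, 2059 without array 4). Members at an unadjusted p under 0.05 numbered 0, against 1 with no background correction (GPX1; 6.27% of named genes), 2 with median centring (CAT and PRDX6; 15.8%), 1 with no filter (TXN; 3.49%), 1 with OXA read as Cy5 (PRDX6; 7.98%) and 0 to 2 leaving out 1 array (2.49% to 24.5%). Median centring put the median over all probes at 0.14 (0.02 with loess), and the median at 0.42 for the 7 enzymes and 0.20 for the wider list. With median centring, which moved probes of like brightness to medians of 0.20 to 0.38, values above 0 but below those medians were given by GPX1 (0.019), CYBA (0.10), GLRX (0.069), HMOX2 (0.073), TXNRD1 (0.12), GSTZ1 (0.12), GSS (0.13) and NQO1 (0.091). With OXA read as Cy5 signs turned for HMOX1 (0.15), PRDX6 (-0.34), GLRX (0.22), UCP2 (0.16), TXNRD1 (0.32) and NQO1 (0.17), and with the mean over probes for TXN (-0.0055) and PRDX6 (-0.040). Values with OXA read as Cy5 equal the dye coefficients of the main fit, as OXA and dye cannot then be told apart. Leaving out 1 array, SOD1 ran from -0.054 (without array 4) to 0.082, and GPX4 from -0.073 (without array 4) to 0.20. The causes were not tested. Counts of probes by sign were added after the data were seen.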
